A study of Mus musculus with 6 samples.

Results

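The cytochrome P450 genes of mouse jejunal organoids were described across 6 poly(A) RNA sequencing libraries. They were taken by name, as every gene whose symbol begins with Cyp and a digit, leaving out 3 names marked as pseudogenes (-ps), which gave 51 of 18448 genes. Organoids are epithelial cultures grown from the intestine. All came from C57BL/6 mice with floxed Hnf4a alleles (Hnf4aflox/flox) and Villin-CreERT2, a tamoxifen-activated Cre under the villin promoter, so both groups carried the same alleles and Cre. In the 4OHT group (3 libraries) 0.5 µM hydroxytamoxifen, which activates the Cre, was given for 24 hours before the organoids were split. The DMSO group (3 libraries) received the vehicle. Both groups were then cultured with 200 ng/mL recombinant Wnt3A protein and were harvested at day 2 after passage. The villin promoter is active in intestinal epithelium, and the exons that the Cre removes are not given in the sources used here. No library came from 4OHT-treated organoids without the Cre or without the floxed alleles. The drug, Cre activity and loss of Hnf4a therefore cannot be told apart in this comparison. Nothing in the labels says that replicates were separate cultures or mice, so the p-values rest on spread that may be technical.

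Cytochrome P450 enzymes are haem proteins that insert an oxygen atom into fats, steroids, vitamins, drugs and plant compounds, with electrons passed on by the reductase Por or, in mitochondria, by ferredoxin. Families 1 to 3 are best known for drug and xenobiotic metabolism, family 4 for omega-hydroxylation of fatty acids and eicosanoids, and the higher families for sterols, bile acids, steroid hormones, retinoic acid and vitamin D. In the small intestine the drug-metabolising members are mostly genes of mature enterocytes, and several are known targets of the nuclear receptors PXR (Nr1i2) and CAR (Nr1i3). HNF4A, the nuclear receptor targeted here, is known to support P450 transcription in liver.

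Library totals ran from 31537100 to 40276242 counts. Hnf4a measured 436, 424 and 482 CPM (counts scaled to library size) in the 4OHT libraries, against 840, 846 and 1021 CPM in the DMSO libraries, with no overlap (log2 fold change of 4OHT over DMSO -1.01, edgeR adjusted p = 0.0124). Counts over the whole gene do not give the share of recombined alleles. DMSO replicate 3 stood apart: chi-square per degree of freedom (library against library, over genes) was 69.5 and 63.7 between it and the other DMSO libraries, against 8.52 between DMSO replicates 1 and 2. It was 78.1 between DMSO replicate 3 and 4OHT replicate 3. Between 4OHT replicate 3 and the other 4OHT libraries it was 18.6 and 34.8, against 17 between 4OHT replicates 1 and 2. All 10 enterocyte markers had values, and their summed level was 2774 to 4316 CPM in the 4OHT libraries and 3803 to 7330 CPM in the DMSO libraries, highest in replicate 3 of both groups. Leukocyte markers summed to at most 0.252 CPM in 4OHT and 0.26 CPM in DMSO libraries (2 of 5 with values), and endothelial markers to at most 0.478 and 0.357 CPM (1 of 3). The 3 mesenchymal markers with values, of 6, summed to 5.09 to 6.97 CPM in 4OHT and 4.44 to 7.60 CPM in DMSO libraries.

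A few genes made up most of the P450 transcripts. On the per-length scale (TPM, counts per exon length scaled to the library), the 51 genes summed to 2471, 2041 and 3399 TPM in the 4OHT libraries and to 2633, 2399 and 4483 TPM in the DMSO libraries. The means were 2637 ± 694 and 3172 ± 1141 TPM (SD, n = 3 each), and the groups overlapped, with replicate 3 highest in both. The 12 genes of highest mean TPM held 83.2% to 87.2% of that sum in a library. Cyp2c65, a drug-metabolising gene of family 2, ranked first at 513 ± 153 TPM in 4OHT and 502 ± 221 TPM in DMSO libraries. Next came the fatty acid hydroxylase gene Cyp4f14 (262 ± 66.2 and 375 ± 192 TPM), the sterol synthesis gene Cyp51 (315 ± 21.7 and 304 ± 3.37 TPM) and Cyp3a13, of the drug-metabolising 3a subfamily (216 ± 56.3 and 274 ± 31.5 TPM). By mean, Cyp51 was above Cyp4f14 in 4OHT and below it in DMSO libraries, with Cyp3a13 below both in each group. The DMSO mean of Cyp4f14 rested largely on replicate 3 (596 TPM, against 268 and 261 TPM in replicates 1 and 2). No test of the order was run. Below them were Cyp2b10, Cyp2j6, Cyp2c66, Cyp2c55 and Cyp2c29, and these 9 genes each averaged at least 100 TPM over the 6 libraries. At the other end, 11 genes had 14 to 49 counts over all 6 libraries and at most 0.308 TPM on average, and were not tested: Cyp1a2, Cyp27b1, Cyp2r1, Cyp4a10, Cyp2j5, Cyp2j8, Cyp2c37, Cyp2c67, Cyp2c70, Cyp3a59 and Cyp2f2. The liver gene Cyp1a2 and the vitamin D hydroxylase genes Cyp2r1 and Cyp27b1 are thus at the detection limit in these organoids.

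**Figure D1:**
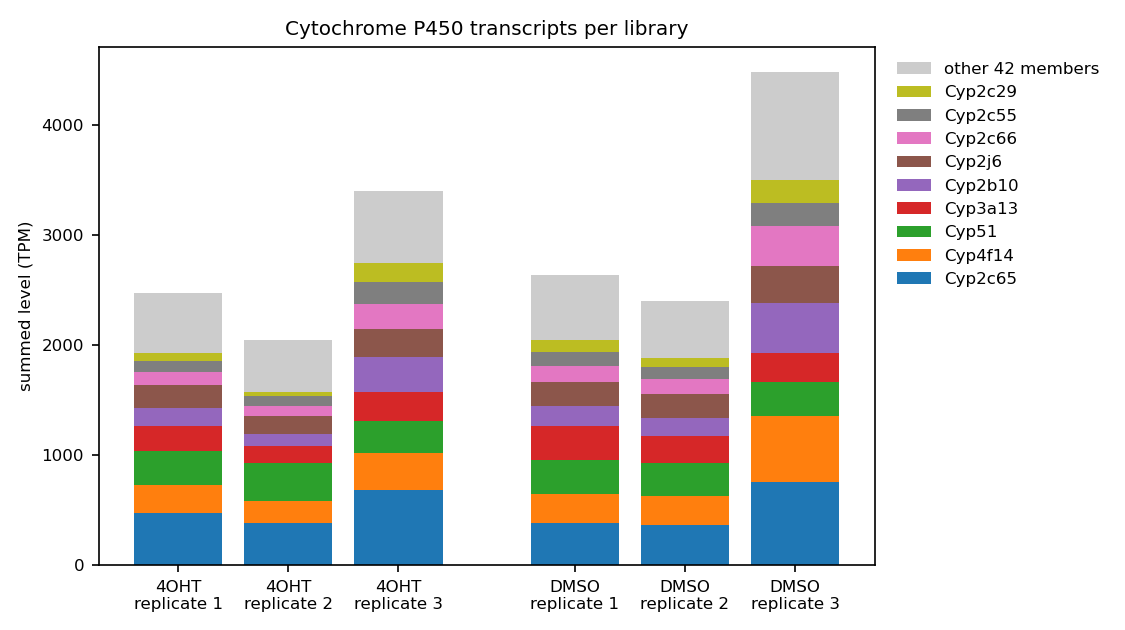
Stacked bars give the summed level of the 51 P450 genes in each library (vertical axis, TPM), split by gene for those that contribute most, with the 4OHT libraries left of the DMSO libraries. The sum is highest in replicate 3 of both groups, at 3399 TPM in 4OHT and 4483 TPM in DMSO, and Cyp2c65 (blue) is the largest named piece in each bar.

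Of the 40 P450 genes that passed the filter on low counts, 1 fell after 4OHT (Cyp2e1), 0 rose and 39 did not pass the test (edgeR quasi-likelihood test, Benjamini-Hochberg adjusted over 14544 genes, threshold 0.05). Over all tested genes 0.908% were called, 0.206% lower and 0.701% higher. Before adjustment, 5 P450 genes were lower and 1 was higher with p under 0.05, where 6.35% and 8.65% of all genes were. DESeq2 called 3 lower and 0 higher (5.41% of all genes called, 1.87% lower), and limma-voom called 1 (0.846% of all genes). Replicates 1 to 3 occur in both groups and deviated together, and the fit that compares 4OHT with DMSO within replicate numbers (the replicate block) called 8 lower and 0 higher, where it called 6.99% of all genes, 3% lower and 3.99% higher. The 8 were Cyp2e1, Cyp4b1, Cyp4f15, Cyp4f16, Cyp2d34, Cyp2c29, Cyp2c66 and Cyp2b10. In the authors' deposited table, 4 P450 genes had an edgeR adjusted p under 0.05 (Cyp2e1, Cyp4b1, Cyp4f15 and Cyp2d34), and 1 had a DESeq adjusted p under 0.05 (Cyp2e1). The share of all genes under 0.05 in that table was not counted, so these counts have no background here.

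The log2 fold change was negative for 32 of the 40 genes, with a median of -0.36, where 50.8% of all genes were negative with a median of -0.0041. The P450 median was -0.36 with the replicate block as well. Without DMSO replicate 3 alone, a fit that leaves 4OHT replicate 3 with no partner, it was 0.0062, with 19 genes negative, and Cyp2e1 alone was called (2.29% of all genes). Without replicate 3 of both groups it was -0.29, with 30 negative, and Cyp2d26, Cyp2d34, Cyp2e1 and Cyp4b1 were lower (4.1% of all genes called, 1.51% lower). Adding the replicate block to that fit gave a median of -0.30, with 19 lower and 4 higher (18.3% of all genes called, 8.16% lower). Leaving out any other single library gave 0 P450 calls, where 0.0606%, 0.135% and 0.0811% of all genes were called without 4OHT replicates 1, 2 and 3 and 0.0404% and 0.027% without DMSO replicates 1 and 2. Other size factors (0.894% and 0.949% of all genes called) and other filters (0.743% and 0.96%) called Cyp2e1 alone. The 4OHT and DMSO libraries did not overlap for 8 genes that were lower and 2 that were higher, where 10.1% and 12.5% of all genes were so. In 23 genes the 4OHT library was lower than the DMSO library of the same number in all 3 pairs, and in 5 it was higher, where 24.6% and 25.3% of all genes were. In bulk RNA, fewer cells of a type and less RNA per cell cannot be told apart. Beside these counts, enterocyte markers (sums given above) had 2 of 10 lower in the fit with the block (Fabp2 and Apoa1). In the fit without the block, Fabp2 was at -0.35 and Apoa1 at -0.77. The uncalled enterocyte markers were also negative there. They were Lct -1.16, Sis -0.78, Anpep -0.68, Fabp1 -0.54, Apoa4 -0.51, Slc5a1 -0.49, Vil1 -0.16 and Alpi -0.14. Goblet cell markers summed to 3114 to 5177 CPM in 4OHT and 1921 to 3615 CPM in DMSO libraries. Of these, 5 of 6 were higher in the fit with the block. The Paneth cell marker Lyz1 was the 1 marker called without the block, with 233, 269 and 240 CPM in 4OHT and 371, 475 and 424 CPM in DMSO (-0.78, adjusted p = 0.0318, and 0.00581 with the block). The other Paneth markers were called in neither fit (Mmp7 0.056, Ang4 0.049, Itln1 0.054, Pla2g2a -0.41 and Defa24 -0.15). Of 6 enteroendocrine markers only Chga (0.41, adjusted p = 0.0478) and of 4 tuft markers only Avil (0.76, adjusted p = 0.0435) were called with the block. The uncalled enteroendocrine markers went both ways (Neurog3 -0.29, Neurod1 -0.32, Sct -0.073, Chgb 0.21 and Gcg 0.49). So did the uncalled tuft markers (Trpm5 -0.17, Dclk1 0.18 and Pou2f3 0.070). The part of these markers in the P450 values was not tested.

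**Figure D2:**
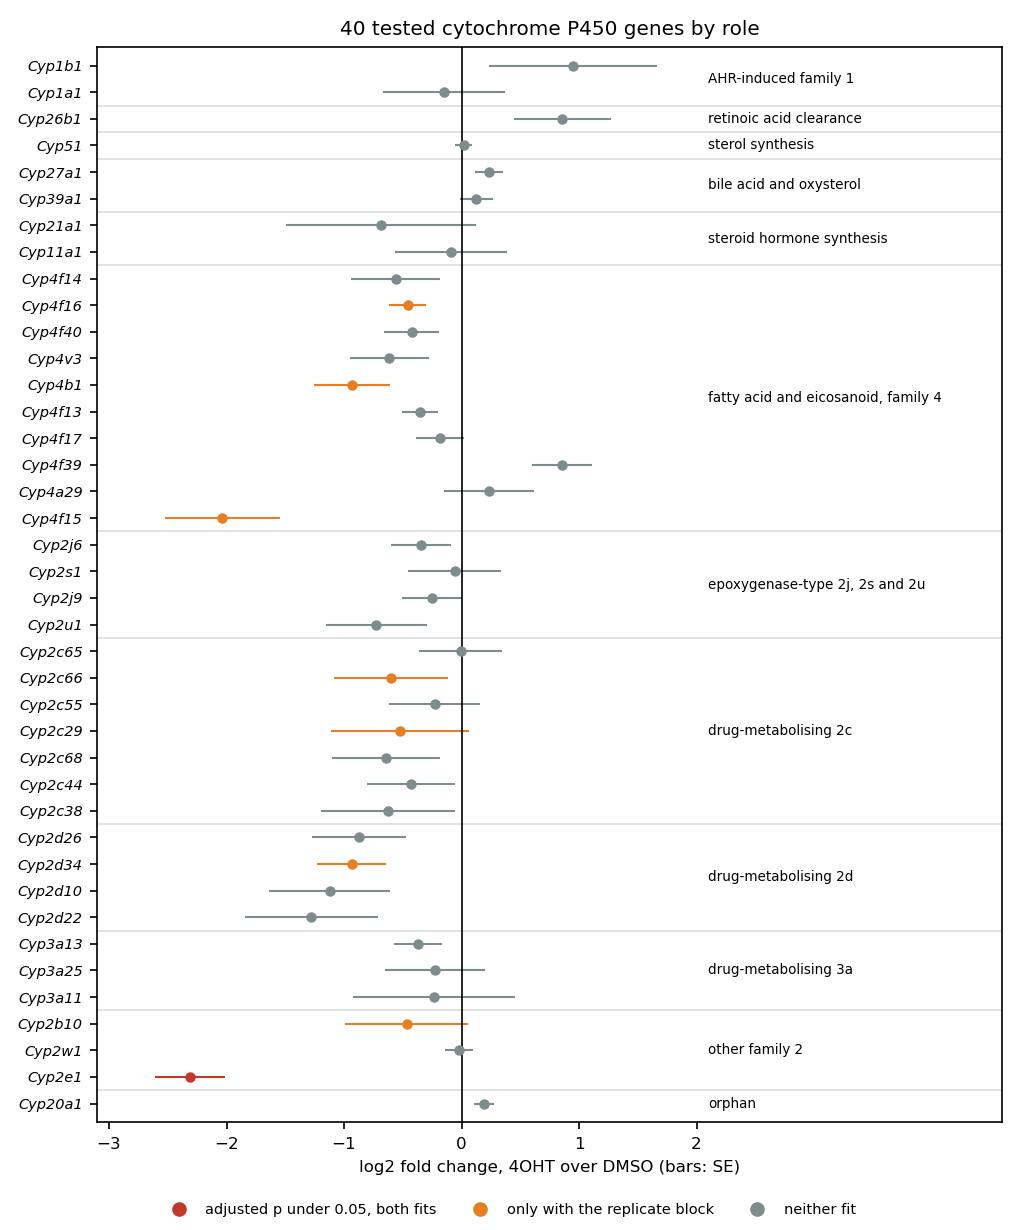
Points give the log2 fold change of 4OHT over DMSO (horizontal axis) of each of the 40 tested P450 genes, grouped by role, with bars of 1 standard error from edgeR without the replicate block (red, called in both fits; orange, called with the block only; grey, in neither). Most points lie left of 0, Cyp2e1 (-2.31) and Cyp4f15 (-2.03) farthest.

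The promoter stretches that follow are shown for the gene called without the block, for the most abundant P450 gene with its close neighbour, and for the 3a gene with the same motif. Each is the 250 bases before the RefSeq start site on GRCm38.p6, 5′ to 3′ on the gene's strand, credited to RefSeq. Capitals mark TATAAA, the TATA-box letters, in Cyp2e1 (plus strand, chr7:140763569-140763818), and CAAAGTCC, part of the binding motif known for HNF4A, in the other genes. These are Cyp2c65 (plus strand, chr19:39060756-39061005), Cyp2c66 (plus strand, chr19:39113648-39113897) and Cyp3a11 (minus strand, chr5:145879855-145880104).
Cyp2e1: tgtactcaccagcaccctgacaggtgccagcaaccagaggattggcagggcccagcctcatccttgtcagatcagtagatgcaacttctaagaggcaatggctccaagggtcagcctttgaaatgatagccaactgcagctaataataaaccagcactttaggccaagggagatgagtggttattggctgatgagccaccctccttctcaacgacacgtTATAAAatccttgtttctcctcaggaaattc
Cyp2c65: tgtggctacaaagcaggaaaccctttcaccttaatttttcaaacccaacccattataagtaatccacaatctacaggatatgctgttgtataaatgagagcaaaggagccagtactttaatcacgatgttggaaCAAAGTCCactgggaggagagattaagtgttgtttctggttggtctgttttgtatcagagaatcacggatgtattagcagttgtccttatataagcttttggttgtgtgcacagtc
Cyp2c66: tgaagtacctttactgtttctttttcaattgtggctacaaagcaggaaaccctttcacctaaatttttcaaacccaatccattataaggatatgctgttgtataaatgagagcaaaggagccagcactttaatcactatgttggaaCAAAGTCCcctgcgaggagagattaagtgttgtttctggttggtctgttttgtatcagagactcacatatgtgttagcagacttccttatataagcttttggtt
Cyp3a11: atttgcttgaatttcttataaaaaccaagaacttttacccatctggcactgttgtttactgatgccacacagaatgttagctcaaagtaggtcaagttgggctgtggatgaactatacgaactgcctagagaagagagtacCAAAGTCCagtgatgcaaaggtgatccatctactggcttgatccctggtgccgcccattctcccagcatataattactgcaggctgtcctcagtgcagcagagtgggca

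Promoters were found for 43 of the 51 genes, and each motif was searched on both strands of the 250 bases. The letters CAAAGTCCA stood in 5 genes (Cyp2c65, Cyp2c67, Cyp2c68, Cyp2c70 and Cyp3a11) and in 0.384% of 32851 promoter windows of all genes. The shorter CAAAGTCC, contained in it, stood in those genes and Cyp2c66, 6 in all, and in 1.2% of all windows. Its first base lay 116 bases before the RefSeq start in Cyp2c65, 104 in Cyp2c66 and 109 in Cyp3a11. In the gene annotation, Cyp3a11 (minus strand) starts at 145879964, inside its printed window. Its distance of 109 bases therefore holds for the RefSeq start only, and by the gene annotation the marked letters lie just inside the gene. The ninth letter differs between Cyp2c65 and Cyp2c66 (A9C, counted from 1 at the first C of CAAAGTCCA in Cyp2c65). CAAAGGTCA was found in Cyp3a25 and Cyp3a59 (0.426% of windows) and CAAAGTTCA in 0 genes (0.335%). GCGTG, the core that the aryl hydrocarbon receptor (AHR) binds, was in 12 genes, Cyp1a1 and Cyp1b1 among them (28.2% of windows), and TATAAA in 15 (12.4%). These matches are descriptions of letters, with no binding data here.

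Cyp2e1 encodes the ethanol- and ketone-oxidising P450, best known from liver. It is ENSMUSG00000025479, on chromosome 7 from 140763739 to 140774987 in GRCm38, so its start in the gene annotation falls inside the printed window. The capital TATAAA lies downstream of that annotated start, within the gene. Cyp2e1 had 14, 21 and 15 counts in the 4OHT libraries and 80, 107 and 51 counts in the DMSO libraries. On the CPM scale that was 0.401, 0.590 and 0.378 in 4OHT, against 2.22, 2.91 and 1.66 in DMSO. Every 4OHT library was below every DMSO library, and replicate 3 was lowest in both groups, unlike most P450 genes. Cyp2e1 fell 4.96-fold, to 0.456 ± 0.117 CPM in 4OHT against 2.26 ± 0.629 CPM in DMSO (SD, n = 3 each, log2 fold change -2.31, SE 0.30, edgeR adjusted p = 0.0284, and 0.00846 with the replicate block). The call was lost without 4OHT replicate 1 (adjusted p = 0.142), 2 (0.0766) or 3 (0.121) and without DMSO replicate 1 (0.0804) or 2 (0.107). It was kept without DMSO replicate 3 (0.0105), and the log2 fold change lay between -2.54 and -2.09 over these 6 fits. Of the hepatocyte markers, Ttr had 1.75, 0.927 and 1.41 CPM in 4OHT and 4.14, 4.16 and 9.62 CPM in DMSO libraries (adjusted p = 0.0717, and 0.0228 with the block), Alb at most 0.0573 and 0.136 CPM, and Serpina1a and Cyp7a1 had no values. The part of Ttr's pattern in that of Cyp2e1 was not tested.

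The family 4 genes, which hydroxylate fatty acids and eicosanoids, held 3 of the 8 block calls among 10 tested, with a median log2 fold change of -0.44. Of all genes, 3% were called lower with the block. Cyp4b1, which hydroxylates fatty acids and activates the lung toxin 4-ipomeanol, had 9.65, 8.43 and 14.8 CPM in 4OHT against 16.8, 15.1 and 31.0 CPM in DMSO. The groups did not overlap, and replicate 3 was highest in both. Its log2 fold change was -0.93 (SE 0.32, edgeR adjusted p = 0.244), and it fell with the block (-0.91, adjusted p = 0.00909) and in DESeq2 (adjusted p = 0.045). The authors' deposited table gives -0.935 for this gene with an edgeR adjusted p of 0.029.

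The 7 Cyp4f genes lie together on chromosome 17 between 32452723 and 32947402. The subfamily is known for omega-hydroxylation of leukotrienes, long-chain fatty acids and vitamin E. Cyp4f16 had 43.8, 33.6 and 41.8 CPM in 4OHT and 53.4, 44.6 and 65.8 CPM in DMSO. The highest 4OHT library was just below the lowest DMSO library, and Cyp4f16 fell in the fit with the block (-0.45, adjusted p = 0.0319, and 0.242 without it). As 24.8% of the 50-base windows of its longest transcript also occur in Cyp4f37, its reads are uncertain. Cyp4f15 was scarce, at 0.115, 0.0843 and 0.176 CPM in 4OHT and 0.389, 0.381 and 0.845 CPM in DMSO, or 68 counts in all. It fell with the block (-2.07, adjusted p = 0.0285, and 0.113 without it) and was lower in all 3 pairs. Cyp4f14, the abundant member and a vitamin E hydroxylase, had 186, 148 and 253 CPM in 4OHT and 199, 193 and 474 CPM in DMSO. Those groups overlapped (-0.56, adjusted p = 0.542), and all 3 pairs were lower in 4OHT (-0.46 with the block, adjusted p = 0.119). The value was -0.24 without replicate 3 of both groups, and -0.25 when the block was added to that fit, in which Cyp4f14 fell (adjusted p = 0.00275). It was -0.0077 without DMSO replicate 3 alone. The remaining Cyp4f genes had log2 fold changes from -0.43 in Cyp4f40 to 0.86 in Cyp4f39, whose human counterpart serves the skin lipid barrier. Cyp4f39 measured 1.0, 1.29 and 0.957 CPM in 4OHT and 0.528, 0.762 and 0.487 CPM in DMSO, the only Cyp4f gene with every 4OHT library above every DMSO library (adjusted p = 0.179, and 0.0663 with the block).

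**Figure D3:**
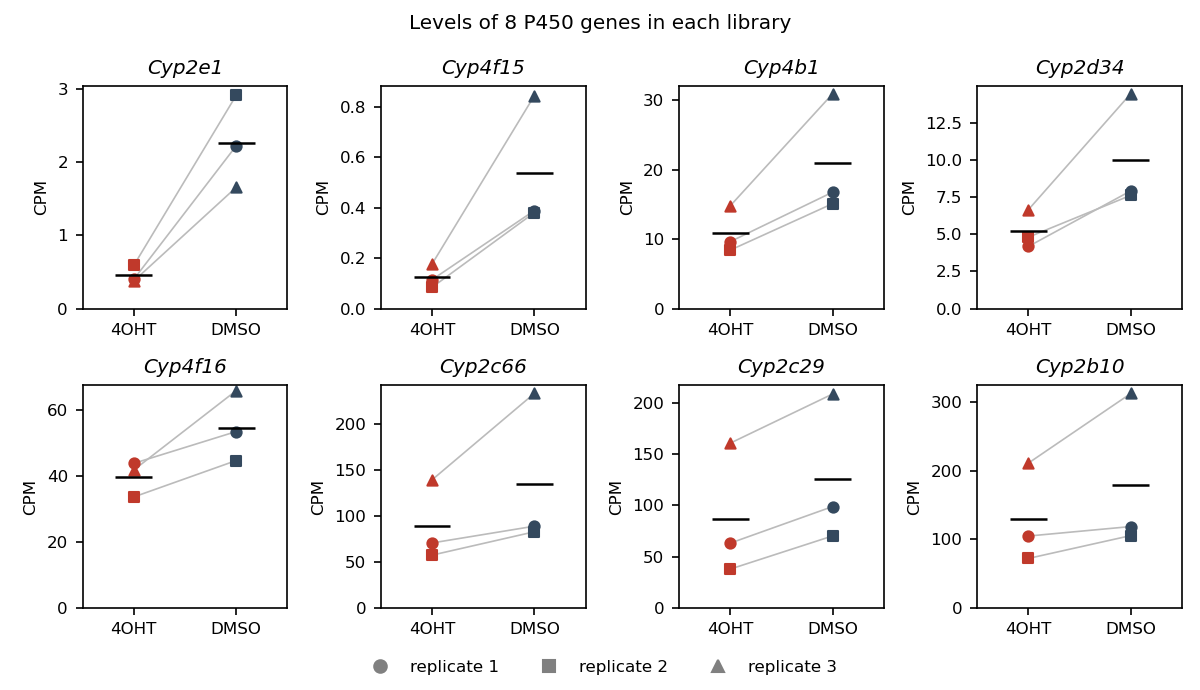
Each panel plots 1 P450 gene, with the CPM of every library as a point (circle, square and triangle for replicates 1, 2 and 3, joined by number), group means as black bars, and the 4OHT libraries left of the DMSO libraries. Cyp2e1, Cyp4b1, Cyp4f15, Cyp4f16 and Cyp2d34 show no overlap between groups, whereas Cyp2c29, Cyp2c66 and Cyp2b10 overlap and are lower in 4OHT within each replicate number.

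Of the 10 drug-metabolising Cyp2c genes on chromosome 19, 9 lie between 39007019 and 40187333 and Cyp2c44 lies apart. They act on drugs and on arachidonic and linoleic acid. The 7 tested all had negative log2 fold changes, with a median of -0.53, where 50.8% of all genes were negative. With the block 2 were called lower and without it 0, where 3% and 0.206% of all genes were. Cyp2c29, an abundant liver epoxygenase, had 63.1, 37.8 and 160 CPM in 4OHT and 98.7, 70.1 and 208 CPM in DMSO. The groups overlapped, since replicate 3 exceeded replicates 1 and 2 in both, while each 4OHT library was below the DMSO library of its number. Cyp2c29 fell with the block (-0.63, adjusted p = 0.0245, and 0.729 without it). Cyp2c66 had 70.8, 57.5 and 139 CPM in 4OHT and 89.1, 83.0 and 234 CPM in DMSO. It showed the same arrangement and fell with the block (-0.54, adjusted p = 0.024, and 0.619 without it). Without DMSO replicate 3, they were at 0.043 and 0.049 on the log2 scale, a fit in which 4OHT replicate 3 has no partner. Without replicate 3 of both groups, Cyp2c29 was at -0.75 and Cyp2c66 at -0.43 (adjusted p = 0.163 and 0.0671).

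Cyp2c65, next to Cyp2c66, did not pass in either fit. It had 276, 225 and 415 CPM in 4OHT and 226, 216 and 479 CPM in DMSO, higher in 4OHT in pairs 1 and 2 and lower in pair 3. Its log2 fold change was -0.0083 (SE 0.35, adjusted p = 0.994), and 0.045 with the block (adjusted p = 0.813). The ratio of Cyp2c65 to Cyp2c66 counts, chosen after its values were seen and not tested, was 3.90, 3.92 and 2.97 in 4OHT libraries and 2.54, 2.61 and 2.05 in DMSO libraries, with no overlap. Of the summed P450 TPM, Cyp2c65 made up 19.1%, 18.8% and 20.1% in 4OHT and 14.5%, 15.3% and 16.9% in DMSO libraries. In end-to-end alignment, the longest transcripts of the pair match in 1696 of 1938 columns (87.5%) and their promoters in 208 of 279 (74.6%). Gap columns are counted in these totals, so the share of matches among paired bases is higher. As 20.2% of the 50-base windows of Cyp2c65 occur in Cyp2c66, some reads could be shared. Cyp2c55, which makes hydroxylated arachidonic acid, had 61.7, 53.3 and 126 CPM in 4OHT and 76.9, 68.4 and 138 CPM in DMSO (-0.23, adjusted p = 0.831, and 0.0527 with the block). Cyp2c68 had 25.7, 17.4 and 37.7 CPM in 4OHT and 29.9, 23.6 and 73.0 CPM in DMSO (-0.64, adjusted p = 0.565), but shares 43.3% of its windows with other genes.

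All 4 genes of the Cyp2d subfamily on chromosome 15, relatives of the human drug-metabolising CYP2D enzyme, had log2 fold changes below 0 (median -1.03). They were lower in 4OHT in all 3 pairs, where 24.6% of all genes were. Cyp2d34 had 4.18, 4.80 and 6.65 CPM in 4OHT and 7.92, 7.62 and 14.5 CPM in DMSO, with no overlap. It fell with the block (-0.91, adjusted p = 0.0194, and 0.207 without it) and in DESeq2 (adjusted p = 0.033). Cyp2d26, the most abundant, had 31.4, 35.1 and 44.6 CPM in 4OHT and 42.4, 44.4 and 117 CPM in DMSO. Its value of -0.87 (adjusted p = 0.368) rested largely on DMSO replicate 3, and it was -0.39 without replicate 3 of both groups, a fit in which it fell (adjusted p = 0.0391). Cyp2d10 had 1.12, 0.759 and 1.21 CPM in 4OHT and 1.28, 1.31 and 4.22 CPM in DMSO (-1.12, adjusted p = 0.37), with 40.5% of its windows shared with other genes. Cyp2d22 had 0.830, 0.731 and 0.906 CPM in 4OHT and 1.11, 0.980 and 4.00 CPM in DMSO (-1.28, adjusted p = 0.351). Neither overlapped, but their log2 fold changes were -0.33 and -0.35 without DMSO replicate 3, and -0.47 and -0.43 without replicate 3 of both groups.

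The Cyp3a genes, relatives of the main human drug-metabolising P450 of the gut, did not pass in either fit, and the 3 tested had values from -0.37 to -0.22. Cyp3a13, the intestinal form, had 205, 139 and 246 CPM in 4OHT and 281, 223 and 259 CPM in DMSO (-0.37, adjusted p = 0.445, and 0.0938 with the block). Cyp3a25 had 29.5, 16.1 and 48.7 CPM in 4OHT and 34.9, 23.5 and 52.1 CPM in DMSO (-0.22, adjusted p = 0.852, and 0.124 with the block). The reads of Cyp3a25 are uncertain, since 25% of its windows occur in Cyp3a59. Cyp3a11, whose promoter is printed above, had 54.7, 27.7 and 142 CPM in 4OHT and 64.8, 38.2 and 162 CPM in DMSO (-0.23, adjusted p = 0.91, and 0.0527 with the block). In each of the 3 genes all pairs were lower in 4OHT, where 24.6% of all genes were, while the groups overlapped.

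Cyp2b10, the classical target gene of the receptor CAR, had 105, 72.1 and 211 CPM in 4OHT and 119, 105 and 313 CPM in DMSO. Each 4OHT library was below the DMSO library of its number, and Cyp2b10 fell with the block (-0.43, adjusted p = 0.0423, and 0.731 without it). Without DMSO replicate 3 alone its value was 0.20 (adjusted p = 0.851), with 4OHT replicate 3 unpaired. Without replicate 3 of both groups it was -0.35 (adjusted p = 0.32), and -0.37 with the block added (adjusted p = 0.000198). Cyp2j6, an arachidonic acid epoxygenase of the intestine, had 223, 176 and 289 CPM in 4OHT and 241, 232 and 403 CPM in DMSO (-0.35, adjusted p = 0.587, and 0.0634 with the block). Cyp2s1, Cyp2j9 and Cyp2u1, of the same role group, had values of -0.057, -0.25 and -0.72 and did not pass in either fit. Cyp2w1, a P450 of fetal colon, averaged 19.1 ± 0.876 TPM in 4OHT and 19.1 ± 3.02 TPM in DMSO libraries.

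The P450 genes of sterol, bile acid, steroid, retinoic acid and AHR pathways did not pass in either fit. Cyp51, the lanosterol demethylase of cholesterol synthesis, had 412, 456 and 413 CPM in 4OHT and 412, 407 and 447 CPM in DMSO (0.017, SE 0.071, adjusted p = 0.938). That SE compares with a median SE of 0.38 over the tested P450 genes. Cyp51 overlaps 166 exon bases of Akap9 on the opposite strand. Of 15 other sterol synthesis genes tested, 0 were called by edgeR in either fit or by DESeq2, and 1 had an unadjusted p under 0.05. Cyp27a1, the sterol 27-hydroxylase of bile acid synthesis, had 30.8, 26.4 and 30.7 CPM in 4OHT and 28.8, 24.2 and 21.6 CPM in DMSO (0.24, adjusted p = 0.417). Cyp39a1, an oxysterol hydroxylase, had a log2 fold change of 0.13 (adjusted p = 0.722).

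Cyp26b1, which breaks down retinoic acid, had 5.18, 13 and 7.05 CPM in 4OHT and 2.97, 4.11 and 6.89 CPM in DMSO, higher in 4OHT in all 3 pairs with overlapping groups (0.86, adjusted p = 0.393). Cyp1b1, an AHR-induced gene that oxidises oestrogens and polycyclic compounds, had 58.2, 22.5 and 22.6 CPM in 4OHT and 30.6, 19.3 and 3.25 CPM in DMSO. It was higher in 4OHT in all 3 pairs, at 0.95 on the log2 scale (SE 0.72, adjusted p = 0.593), and DMSO replicate 3 was far below the other libraries. Cyp1a1, the most strongly AHR-induced P450, had 5.98, 1.63 and 7.80 CPM in 4OHT and 8.03, 4.57 and 4.52 CPM in DMSO (-0.15, adjusted p = 0.926). Among steroid hormone genes, Cyp21a1 had 0.573, 0.225 and 0.101 CPM in 4OHT and 0.750, 0.572 and 0.0650 CPM in DMSO, with 23.7% of its windows shared with a pseudogene. Cyp11a1, the side-chain cleavage gene, had 58 counts in total. Cyp27b1, which activates vitamin D, had at most 0.200 CPM in 4OHT and 0.435 CPM in DMSO libraries. Cyp20a1, an orphan with no settled substrate, had 23.5, 24.9 and 22.4 CPM in 4OHT and 21.5, 21.7 and 18.8 CPM in DMSO, without overlap (0.19, adjusted p = 0.356).

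Replicate 3 carried more P450 RNA in both groups. Of the 40 tested genes, 26 were above the mean log2 level of replicates 1 and 2 in both groups and 6 were below it in both, where 33.6% and 33.8% of all genes were. The median difference was 0.39 in 4OHT and 0.88 in DMSO (log2 scale), against -0.0016 and 0.0011 over all genes. All 7 tested Cyp2c genes were higher in both replicate 3 libraries, with medians of 1.06 in 4OHT and 1.32 in DMSO. The Cyp3a genes had medians of 1.16 in 4OHT and 0.87 in DMSO, and the Cyp2d genes 0.41 and 1.56. Cyp1b1 was lower, by -0.68 in 4OHT and -2.90 in DMSO. Of 10 enterocyte markers 9 were higher in 4OHT replicate 3 and 10 in DMSO replicate 3, with medians of 0.35 and 0.87. All 6 goblet markers were also higher in both, with medians of 0.59 and 0.84. Of 4 stem markers 0 were higher in 4OHT replicate 3 and 2 in DMSO replicate 3, with medians of -0.75 and -0.15. Of 4 proliferation markers 0 were higher in either, and of 6 Paneth markers 3 were higher in each. Of 6 enteroendocrine markers 5 and 6 were higher, and of 4 tuft markers 0 and 3. Whether these markers account for the P450 values was not tested.

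**Figure D4:**
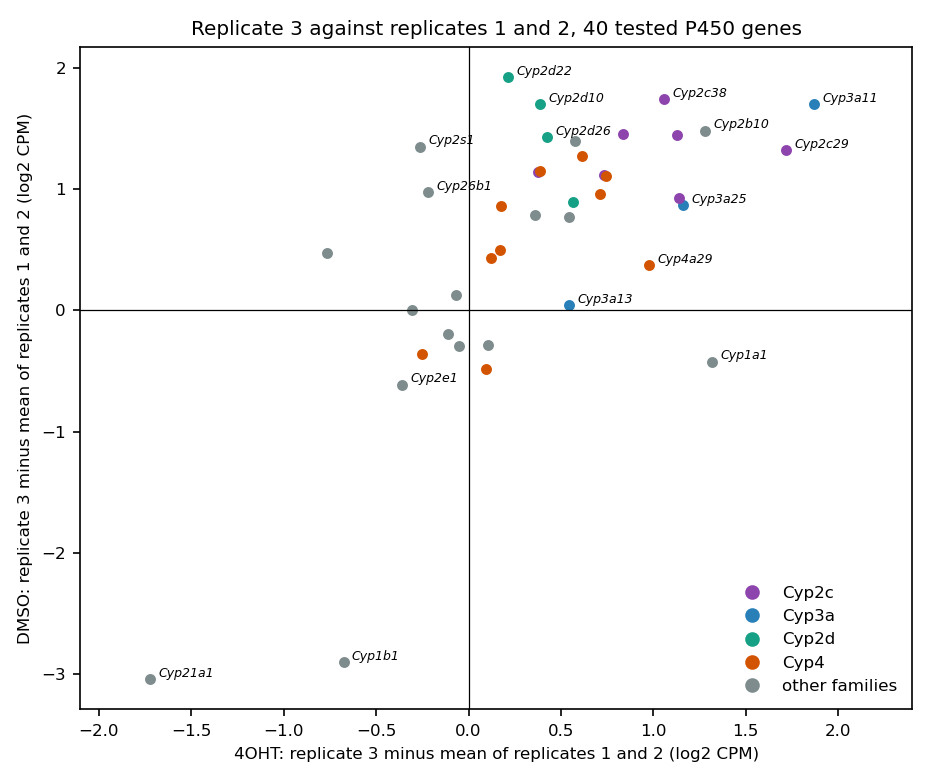
Each point is a tested P450 gene, with the log2 difference of replicate 3 from the mean of replicates 1 and 2 in the 4OHT group (horizontal axis) and in the DMSO group (vertical axis). Of the 40 genes, 26 lie above 0 on both axes, Cyp3a11 and Cyp2c29 among the farthest, and Cyp1b1 lies far below 0 in DMSO.

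Among the partners and regulators of the P450s, 87 of 96 listed genes were tested, and 2 fell and 1 rose without the block (11 and 6 with it), with a median log2 fold change of -0.054. The background is 0.908% of all genes called, and 6.99% with the block. The 2 that fell were Hnf4a and Lrat, which stores retinol as ester. Lrat had 0.687, 0.562 and 0.453 CPM in 4OHT and 2.06, 2.48 and 4.09 CPM in DMSO (-2.33, adjusted p = 0.0335). The retinoic acid receptor gene Rarg rose, with 48.8, 48.7 and 54.8 CPM in 4OHT and 27.2, 24.6 and 26.1 CPM in DMSO (0.97, adjusted p = 0.00816). Neither Lrat nor Rarg overlapped between groups. Lrat and Hnf4a lost their calls in 5 of the 6 fits that leave out 1 library, being kept without DMSO replicate 3, and their adjusted p reached 0.138 and 0.0951. Rarg lost its call without 4OHT replicate 1 (0.0557) and without DMSO replicate 1 (0.0509) or 2 (0.0606).

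Nr1i2 and Nr1i3, whose receptors induce drug-metabolising P450s, fell with the block. Nr1i2 (PXR) had 49.6, 45.9 and 57.6 CPM in 4OHT and 63.5, 60.7 and 80.8 CPM in DMSO (-0.42, adjusted p = 0.0135, and 0.201 without it). Nr1i3 (CAR) had 18.4, 15.7 and 23.6 CPM in 4OHT and 25.4, 23.4 and 50.2 CPM in DMSO (-0.72, adjusted p = 0.0336, and 0.303 without it). The vitamin D receptor gene Vdr fell as well (-0.55, adjusted p = 0.0486, and 0.316 without it), whereas Ppard (0.41, adjusted p = 0.0159) and Pparg (0.67, adjusted p = 0.0235), receptors for fatty acids, rose with the block. The adjusted p of Ppard and Pparg without the block was 0.0539 and 0.0645. Hnf4g, the paralogue of Hnf4a, did not pass without the block (-0.13, adjusted p = 0.90) or with it (-0.072, adjusted p = 0.707). Ahr rose with the block (0.34, adjusted p = 0.0489, and 0.123 without it), with 40.2, 38.2 and 40.7 CPM in 4OHT and 34.6, 31.1 and 28.6 CPM in DMSO.

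Por, the main electron donor gene, did not pass in either fit. It had 272, 247 and 301 CPM in 4OHT and 253, 240 and 348 CPM in DMSO (-0.039, SE 0.15, adjusted p = 0.933). Cyb5a, the microsomal cytochrome b5, fell with the block (-0.30, adjusted p = 0.0355, and 0.608 without it), as 1 of 10 electron donor genes. Cyb5b, the most abundant of them, was at 0.022 with the block (adjusted p = 0.844, and 0.962 without it). Of 13 genes of haem synthesis and breakdown, Blvrb (-0.63, adjusted p = 0.0313, and 0.113 without it) fell with the block. Hmox1 (0.69, adjusted p = 0.0458, and 0.236 without it) rose with it, and both are of the breakdown branch. Alas1, the rate-limiting synthesis gene, was at -0.022 with the block (adjusted p = 0.823, and 0.963 without it). Of the retinoid genes, Rbp2 (-0.36, adjusted p = 0.0458) and Aldh1a1 (-0.44, adjusted p = 0.0444) also fell and Aldh1a3 (1.5, adjusted p = 0.0473) rose with the block. Without it their adjusted p was 0.554, 0.689 and 0.212. Of the eicosanoid partners, Ephx2, which hydrolyses the epoxides made by epoxygenases, and Lta4h, which makes leukotriene B4, fell with the block (-0.31, adjusted p = 0.0414, and -0.36, adjusted p = 0.0132). Without it their adjusted p was 0.608 and 0.0511.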

How the data were processed

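RNA from 6 libraries was measured with a directional poly(A) kit from 250 ng of total RNA, per the labels' protocols. STAR 2.4.0f1, bcl2fastq 1.8.4 and GRCm38 are named per the submitters' processing notes. The counting program and its strand setting are not given in the sources used here. The authors deposited raw counts per gene and library for 18448 genes, each with at least 10 counts in total, per the file headers. They also deposited a normalised score per library, which was not used, and log2 fold changes and p-values from DESeq and edgeR, which are only set beside the results.

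Counts were tested in R 4.3.3 with edgeR 4.0.16 (TMM, filterByExpr, quasi-likelihood F test, 14544 genes, two-sided p-values adjusted by Benjamini-Hochberg). Unless another tool is named, adjusted p-values are edgeR's. DESeq2 1.42.0 and limma-voom (limma 3.58.1) were alternatives, with other scalings, filters and libraries left out. The script was tested on simulated data. CPM uses the TMM-scaled library size, and TPM the exon length in GENCODE mouse release 21, in which all 51 P450 genes were found. Reads shared between near-identical genes were gauged by 50-base windows of the longest transcript.

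The labels number replicates 1 to 3 in both groups without saying what a number marks. Across genes, the deviation of a library from its group mean correlated with that of the equally numbered library at 0.29, 0.31 and 0.41, and with unequal numbers at -0.35 to 0.07. Because deviations from a group mean cancel out, positive values at equal numbers tend to make those at unequal numbers negative. Pairing was taken from these values, and so from the same counts that the block then tested. The members and gene lists were chosen with earlier results of these data known. Values per library are given for P450 genes called with or without the block, the 12 highest by TPM, the highest of each role group, and those of at least 2-fold difference without overlap. Partner genes called in either fit are named, some with fold change and adjusted p only. Cyp2s1, Cyp2j9, Cyp2u1, Cyp2w1, Cyp39a1, Cyp4f39, Cyp4f40, Cyp3a11, Cyp1a1 and Cyp11a1 were added after their values were seen.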

Additional observations from a re-analysis of the deposited data

How the results depend on the processing

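The count of P450 genes called was 1. It was 3 with DESeq2, 8 with the replicate block, 4 without replicate 3 of both groups, and 0 to 1 when 1 library was left out. Joining the block with the loss of replicate 3, an alternative chosen after seeing the data, gave 23, of which 19 were lower and Cyp1b1, Cyp26b1, Cyp2c65 and Cyp2s1 were higher. For all genes the corresponding counts were 132, 756, 1017, 601, 4 to 340, and 2678. For partners and regulators they were 3, 9, 17, 11, 0 to 6, and 26. Leaving out 1 library in turn turned the sign of several log2 fold changes, which ranged from -1.08 to 0.049 in Cyp2c66, -1.32 to 0.043 in Cyp2c29, -1.02 to 0.20 in Cyp2b10, -0.72 to 0.14 in Cyp2c55, -0.97 to 0.0051 in Cyp2c68, -0.69 to 0.11 in Cyp3a25, -0.42 to 0.36 in Hnf4g, -0.29 to 0.46 in Cyp2c65 and -0.032 to 0.054 in Cyp51. The upper ends came without DMSO replicate 3, and the lower ends without 4OHT replicate 3, or 2 for Cyp51. Cyp2c65 was at 0.039 with limma-voom, 0.045 with the block, and 0.17 without replicate 3 of both groups, with the block (adjusted p = 0.0292) and without it. Hnf4g was at 0.069 with and 0.073 without the block in those fits. Cyp2e1 kept its sign in every fit. Other scalings and filters left the count at 1. The cause of these shifts was not tested. Low counts limit precision: 11 genes were below the filter, and with no filter all 51 were tested and Cyp2e1 alone was called.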
